A study of Mus musculus with 64 samples.

Results

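The genes described are 30 genes of blood vessels and of the membranes around the brain, taken by symbol from 55401 genes in the counts table. They comprise 16 endothelial genes (Cldn5, Pecam1, Flt1, Kdr, Tek, Tie1, Cdh5, Slco1a4, Abcb1a, Mfsd2a, Ly6c1, Itm2a, Vwf, Egfl7, Esam and Slc2a1), 4 pericyte genes (Pdgfrb, Rgs5, Abcc9 and Vtn), 4 smooth muscle genes (Acta2, Tagln, Myl9 and Myh11) and 6 meningeal or fibroblast genes (Dcn, Lum, Slc6a13, Igf2, Ogn and Foxc1). All 30 passed the filter on low counts, as did 18971 genes in all. The lowest library count of any of them was 4 reads, for Tagln and for Igf2, both in the hypothalamus.

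RNA was sequenced from the prefrontal cortex (PFC; the labels say Frontal Cortex) and the hypothalamus (HYP) of male C57BL/6J mice that were 10 weeks old, fed chow and housed in groups. Mice were injected once, into the peritoneum, with psilocybin (3 mg/kg), a serotonergic psychedelic, or with isotonic saline as vehicle, and tissue was taken 3 h or 4 weeks later, in the morning. With 8 mice in each of the 4 combinations and both regions taken from every mouse, there were 32 mice, 64 libraries and 8 groups, of which 62 libraries with 8061033 to 70361839 counts (median 18287978.5) were analysed. The excluded libraries, HYP vehicle 3 h replicate 2 and PFC psilocybin 4 weeks replicate 3, held 211111 and 200066 counts. The replicate number is the cage number, and RNA was extracted in 4 pools: A for the hypothalamus of cages 1 to 4, B for that of cages 5 to 8, and C and D for the PFC of the same cages. Region therefore cannot be told apart from extraction pool, and the mice sampled 4 weeks after injection were also 4 weeks older than those sampled at 3 h, so that time since injection and age cannot be told apart. Only male mice of 1 strain, and whole pieces of tissue rather than isolated vessels, were examined. The region labels held: 6 of 6 cortical marker genes were higher in PFC, and the summed level of 7 hypothalamic markers was 305.5 to 2549 CPM (counts per 1000000) in HYP libraries against 0.391 to 12.8 in PFC.

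Brain capillaries are lined by endothelial cells joined by tight junctions, and these cells carry transporters that supply the tissue or pump compounds back into the blood. Pericytes sit on the capillary wall, smooth muscle cells wrap arteries and arterioles, and fibroblast-like cells of the meninges and of the spaces around larger vessels make much of the collagen and proteoglycan of the brain's coverings. Bulk tissue holds all of these cells in small amounts next to neurons and glia.

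Mfsd2a, the carrier of lysophospholipids with docosahexaenoic acid into the brain, and Slc2a1, the glucose transporter GLUT1, were the members with the lowest adjusted p between 3 h and 4 weeks in 3 of the 4 such comparisons, and both lie on chromosome 4. In the annotation behind the counts (GENCODE vM25, GRCm38) Mfsd2a (ENSMUSG00000028655.11) spans chromosome 4 from 122946850 to 122961152 on the minus strand, and Slc2a1 (ENSMUSG00000028645.11) from 119108711 to 119137983 on the plus strand. The bases before their RefSeq start sites (build GRCm38.p6) are shown because both genes were called higher at 3 h in PFC, with matches to ACGTG in capitals. The letters were chosen after the sequences had been seen, and a match is a description, not a bound site.
Mfsd2a, chr4:122961189-122961438, minus strand: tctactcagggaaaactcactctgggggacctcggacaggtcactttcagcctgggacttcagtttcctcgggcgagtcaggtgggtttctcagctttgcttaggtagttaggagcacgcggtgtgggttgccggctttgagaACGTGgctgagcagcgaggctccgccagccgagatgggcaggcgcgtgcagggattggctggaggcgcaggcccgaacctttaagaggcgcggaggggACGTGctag
Slc2a1, chr4:119108495-119108713, plus strand: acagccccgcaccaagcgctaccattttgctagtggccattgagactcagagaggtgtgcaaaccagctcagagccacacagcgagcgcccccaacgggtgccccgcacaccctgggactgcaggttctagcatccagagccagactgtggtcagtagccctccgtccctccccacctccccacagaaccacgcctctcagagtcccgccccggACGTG
The Mfsd2a run ends at the base before the start and holds 2 matches, whose first bases lie 107 and 9 bases before it. The Slc2a1 run ends with its only match, whose first base lies 36 bases before the RefSeq start. The annotation behind the counts begins the gene 34 bases before that start, inside the match, and the 31 bases after the match are not shown. ACGTG on either strand was present in the 250 bases before the start in 16.6% of 32851 RefSeq promoters, and in 4 of the 29 promoters listed for 21 of the members (those of Igf2, Mfsd2a, Slc2a1 and Slc6a13). CACGTG, which contains it, was present in 6.02% of all promoters and in 0 of the 29.

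The level per transcript length, given as the median RPKM (reads per kilobase of transcript and per 1000000 counts) over the 31 libraries of a region, spanned from 38.8 for Vtn to 0.525 for Tagln in PFC and from 26.6 for Slc2a1 to 0.243 for Igf2 in HYP. Vtn encodes vitronectin, an adhesive matrix protein that pericytes secrete in brain. In PFC it was followed by Itm2a (27.8), a small membrane protein of endothelium, Slc2a1 (20.3), Rgs5 (19.498), a regulator of G protein signalling in pericytes, and Cldn5 (18.4), the main claudin of brain tight junctions. In HYP the order began with Slc2a1 (26.6), Itm2a (22.1), Vtn (20.3), Cldn5 (13.7) and Rgs5 (10.4). The receptors for vascular endothelial growth factor (VEGF) stood lower, with median RPKM in PFC of 4.22 for Flt1 and 1.496 for Kdr, as did the angiopoietin receptor Tek (2.83) and its relative Tie1 (1.86). The contractile genes Myh11 (0.882) and Tagln (0.525) closed the order in PFC. Tagln, with a mean of 17.0 counts per library, overlaps Pcsk7 on the other strand, which had a mean of 431 counts. The kit marked strand, but the division of reads between these genes is less certain than for other members. The same may hold for Abcb1a, Slco1a4 and Ly6c1, which have relatives of similar sequence, and this was not measured.

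The libraries were not equal. HYP psilocybin 4 weeks replicate 5 had the lowest HYP value for 12 members, among them Pecam1, Flt1, Kdr, Tek, Cdh5, Vwf, Rgs5 and Abcc9, and the highest for 4, Cldn5, Egfl7, Acta2 and Myl9. Its deviation from its group and pool fell with transcript length, with a Spearman correlation of −0.705 over the 30 members and −0.468 over all 18971 genes, and the median deviation (log2) was 0.28 over the 10 shortest members and −0.76 over the 10 longest. That correlation over all genes was −0.11 in PFC psilocybin 3 h replicate 7 and between −0.275 and 0.325 in the other 60 libraries. The same library had the highest summed level of its group in hypothalamic markers (2549 CPM, the next 739), pituitary genes (584 and 306), blood cell genes (753 and 306) and microglia genes (613 and 474), and the lowest in the Wnt and barrier genes (443 CPM). PFC psilocybin 3 h replicate 7 had 962 CPM of blood cell genes, where the next library of its group had 477, and 6618 CPM of neuron genes, the lowest in PFC. The part of these cells and of the dissection in the values of both libraries was not tested. PFC psilocybin 3 h replicate 7 had the highest PFC value for 7 members (Cldn5, Mfsd2a, Egfl7, Pdgfrb, Vtn, Myl9 and Igf2) and the lowest for Rgs5. Without both libraries the region calls were still 28 higher and 1 lower, and 2 members were called in each comparison over time. HYP vehicle 3 h replicate 6 was the highest HYP library for 7 members, all endothelial: Flt1, Kdr, Tek, Cdh5, Abcb1a, Itm2a and Vwf.

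**Figure D1:**
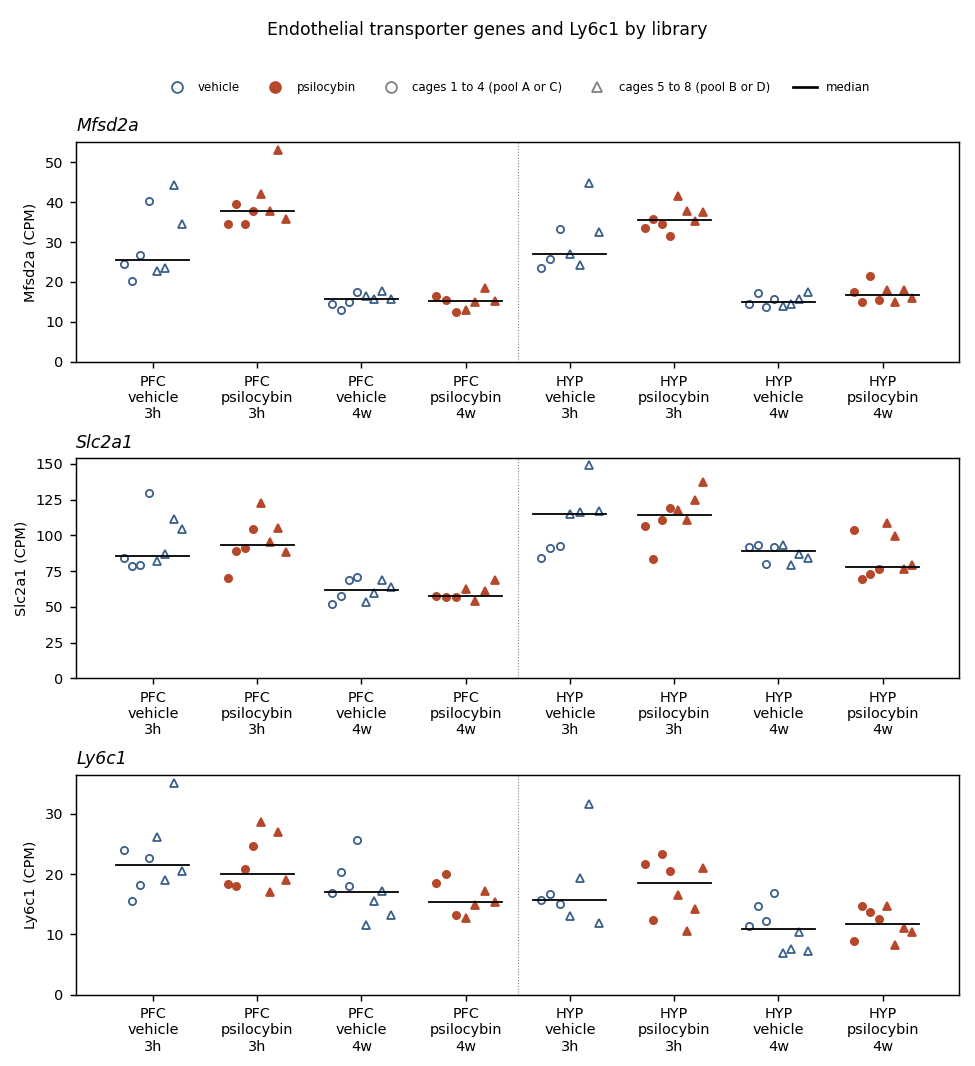
Level of Mfsd2a, Slc2a1 and Ly6c1 in CPM (y axis, from 0) in each library of the 8 groups of region, treatment and time (x axis). Circles are cages 1 to 4, triangles are cages 5 to 8, open symbols are vehicle, filled symbols are psilocybin, and the lines mark group medians. The 3 h libraries of Mfsd2a lie above all 4-week libraries of the same region and treatment.

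The question of what changed between 3 h and 4 weeks after an injection was answered within each treatment and region. Mfsd2a was higher at 3 h in all 4 comparisons, by 1.88-fold to 2.61-fold, and Slc2a1 was higher in 3 of them. Ly6c1, a surface protein of mouse brain endothelium, was higher at 3 h in the hypothalamus of vehicle mice. The other 27 members did not pass in any of the 4 in edgeR, in which none of the 30 was called lower. In other analyses 1 member was called lower in 3 of the comparisons: Pdgfrb in HYP vehicle (−0.27, voom with quality weights), Tek in PFC psilocybin (−0.41 with voom, −0.40 with only the groups of the contrast) and Slc6a13 in HYP psilocybin (−1.14, DESeq2). In pieces of whole tissue, fewer cells of a type and less RNA per cell cannot be told apart.

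In PFC after vehicle, Mfsd2a had 20.2 to 44.2 CPM (median 25.6) at 3 h and 13.1 to 17.7 (median 15.8) at 4 weeks. After psilocybin it had 34.4 to 53.0 CPM (median 37.7) at 3 h and 12.4 to 18.4 (median 15.3) at 4 weeks. In neither treatment did the ranges meet. In HYP after vehicle the values were 23.6 to 44.7 CPM (median 27.1) at 3 h and 13.8 to 17.4 (median 15.1) at 4 weeks. After psilocybin they were 31.6 to 41.6 CPM (median 35.6) at 3 h and 14.97 to 21.6 (median 16.7) at 4 weeks. Here too each 3 h library stood above each 4-week library. The log2 differences, 3 h minus 4 weeks, were 0.91 ± 0.116 (SE) in PFC vehicle, 0.96 ± 0.120 in HYP vehicle, 1.39 ± 0.122 in PFC psilocybin and 1.07 ± 0.116 in HYP psilocybin. Their adjusted p from the quasi-likelihood test of edgeR, with the Benjamini-Hochberg (BH) adjustment over all genes tested, were 1.527e-07, 2.718e-07, 1.208e-12 and 8.74e-09.

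Slc2a1 in PFC after vehicle had 78.6 to 130 CPM (median 85.5) at 3 h and 52.3 to 71.2 (median 61.6) at 4 weeks. After psilocybin it had 70.4 to 122 CPM (median 93.5) at 3 h and 53.9 to 69.0 (median 57.9) at 4 weeks. In both treatments all PFC libraries at 3 h were higher than all at 4 weeks. The log2 differences were 0.61 ± 0.1004 (SE; 1.53-fold) and 0.69 ± 0.105 (1.61-fold), with edgeR BH-adjusted p of 4.68e-05 and 8.762e-06. In HYP the groups overlapped. After psilocybin the values were 83.6 to 137 CPM (median 114) at 3 h and 69.3 to 109 (median 77.7) at 4 weeks, a log2 difference of 0.41 ± 0.0999 (1.33-fold; edgeR BH-adjusted p = 0.0223). After vehicle they were 84.0 to 149 CPM (median 115) and 79.3 to 93.3 (median 89.4), a log2 difference of 0.29 ± 0.104 that did not pass the test (edgeR BH-adjusted p = 0.2854). The call after psilocybin in HYP was lost without HYP psilocybin 3 h replicate 8 (edgeR BH-adjusted p = 0.06064), with all 64 libraries (0.1085) and in a fit to these 2 groups alone (0.2141). Astrocytes also make GLUT1. Of 10 astrocyte genes, 2 in PFC vehicle and 3 in PFC psilocybin were higher at 3 h and none was lower, and in HYP none passed; their part in the result was not tested.

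Ly6c1 in HYP after vehicle had 11.8 to 31.6 CPM (median 15.7) at 3 h and 6.88 to 16.9 (median 10.9) at 4 weeks. The groups overlapped, and the log2 difference was 0.76 ± 0.189 (SE; 1.69-fold; edgeR BH-adjusted p = 0.03465). In HYP after psilocybin (0.56 ± 0.181), in PFC after vehicle (0.39 ± 0.178) and in PFC after psilocybin (0.44 ± 0.185) the log2 difference had the same sign but did not pass (edgeR BH-adjusted p of 0.1046, 0.2146 and 0.1472). Within extraction pools the HYP vehicle difference was 0.21 in pool A, with overlapping groups, and 1.15 in pool B. The call was lost in 5 of the alternative analyses and without any one of 7 HYP vehicle libraries (3 h replicates 6 and 7, 4 weeks replicates 1, 5, 6, 7 and 8), where the edgeR BH-adjusted p reached at most 0.2674.

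The members called higher at 3 h numbered 2 of 30 in each comparison, against 2.39% of all genes tested in PFC vehicle, 0.522% in HYP vehicle, 2.7% in PFC psilocybin and 0.743% in HYP psilocybin. In that order these shares are 453, 99, 513 and 141 of 18971 genes. Without HYP psilocybin 4 weeks replicate 5 they were 838, 166, 1026 and 117 of 18890, with 2 members in each. The members that stood at 3 h above 4 weeks with no overlap were Mfsd2a and Slc2a1 in PFC, where 0.322% of all genes did so after vehicle and 0.696% after psilocybin, and Mfsd2a in HYP, where 0.669% did so after vehicle and 0.285% after psilocybin. Within pools, the Mfsd2a log2 difference in PFC was 0.85 in C and 0.87 in D after vehicle and 1.31 and 1.44 after psilocybin, and in HYP 0.83 in A and 1.03 in B after vehicle and 0.97 and 1.18 after psilocybin, with no overlap in any pool. In PFC Slc2a1 differed by 0.55 in C and 0.64 in D after vehicle and by 0.62 and 0.74 after psilocybin. In HYP after vehicle it differed by 0.0041 in A and by 0.53 in B, and after psilocybin by 0.38 and 0.45.

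Over all 30 members the median log2 difference, 3 h minus 4 weeks, was 0.11 in PFC vehicle, 0.061 in HYP vehicle, 0.18 in PFC psilocybin and 0.11 in HYP psilocybin, against −0.0040, 0.0022, 0.0080 and −0.029 over all genes tested. The members' medians were positive in each alternative but moved by more than 1.5 times, between 0.013 (voom) and 0.11 in PFC vehicle, 0.026 (no pool) and 0.080 in HYP vehicle, 0.084 (voom) and 0.20 in PFC psilocybin, and 0.090 and 0.18 (no filter) in HYP psilocybin. In HYP psilocybin the medians of the gene groups had opposite signs, 0.37 over the endothelial and −0.52 over the meningeal members. There 12 of 30 members had an unadjusted p under 0.05, as did 17.4% of all genes, the lowest after the called pair being that of Abcc9, a subunit of the potassium channel of pericytes (0.69, edgeR BH-adjusted p = 0.07744). Without HYP psilocybin 4 weeks replicate 5 the unadjusted count was 12 members and 1915 of 18890 genes, against 3302 of 18971 with it. In that library Abcc9 had 1.47 CPM, where the others of its group had a median of 6.03. The part of this library in the medians of the gene groups was not tested. The meningeal members had a negative median in HYP vehicle as well (−0.29) and positive medians in PFC (0.23 after vehicle, 0.43 after psilocybin). The 9 choroid plexus genes had medians of −1.30 in HYP vehicle and −0.27 in HYP psilocybin with none called. The summed choroid plexus level in HYP vehicle had a median of 46.3 CPM at 3 h and 53.9 at 4 weeks. At 4 weeks replicate 3 had 1279 CPM and the next library 112. The summed meningeal members had medians of 21.4 CPM at 3 h and 22.9 at 4 weeks, with 79.5 in that replicate. Its part in the HYP vehicle differences was not tested. In HYP psilocybin 28 of 30 further meningeal genes (median −0.54, 1 called), 10 of 10 microglia genes (−0.21, 0 called) and 6 of 7 perivascular macrophage genes (−0.42, 0 called) had negative differences as well. In PFC psilocybin 29 of 30 further meningeal genes (0.48, 0 called), 9 of 10 microglia genes (0.26, 1 called), 6 of 7 perivascular macrophage genes (0.34, 0 called) and 10 of 10 astrocyte genes (0.26, 3 called) had positive ones. The part of these cells was not tested. The lowest adjusted p short of the threshold in PFC vehicle was that of Vwf, the clotting factor stored by endothelium (0.58, edgeR BH-adjusted p = 0.1476), and in PFC psilocybin that of Tek (−0.39, 0.1309).

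Other genes of the vessel wall were counted in the same comparisons, in which 2.39% of all genes were higher and 2.34% lower at 3 h in PFC vehicle, 0.522% and 0.163% in HYP vehicle, 2.7% and 3.26% in PFC psilocybin, and 0.743% and 0.416% in HYP psilocybin. Of 40 further endothelial genes, 1 was higher at 3 h in PFC vehicle, 0 passed in HYP vehicle, 4 were higher in PFC psilocybin, and 1 was higher and 1 lower in HYP psilocybin. Abcc4, an efflux pump of endothelium, was the gene called in PFC vehicle (0.46) and was also called in PFC psilocybin (0.54) and HYP psilocybin (0.50). The gene called lower was Plvap (−0.60), which forms the diaphragms of fenestrated capillaries. In PFC psilocybin Nostrin (1.07), which binds the endothelial nitric oxide synthase, and Ramp2 (0.75), a subunit of the adrenomedullin receptor, were called higher as well. Of 31 genes of VEGF, angiopoietin and Notch signalling, 2 were higher and 1 lower in each PFC comparison and 0 passed in HYP. Klf4, a transcription factor induced in endothelium by flow, was higher at 3 h in PFC after vehicle (0.74) and after psilocybin (0.62). Of 20 genes of Wnt signalling and barrier induction, only Fzd6 in PFC vehicle (−0.43) passed. Of 23 further mural genes, 1 was lower in PFC vehicle, and 1 was higher and 1 lower in PFC psilocybin. Mcam, an adhesion molecule of mural and endothelial cells, was the lower gene in both (−0.40 and −0.61). Of 30 further meningeal and fibroblast genes, Col6a1 in HYP psilocybin (−1.04) alone passed.

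The difference of the time effect between regions was tested in vehicle mice, where no member passed in edgeR (0 of 30, against 0.0369% of all genes) or in DESeq2 or voom, and 2 had an unadjusted p under 0.05, near the share of 5.84% of all genes. These were Acta2, the actin of smooth muscle (0.65 ± 0.274 SE, PFC minus HYP, edgeR BH-adjusted p = 0.7218), and Slc2a1 (0.32 ± 0.144, 0.7778). The call of Slc2a1 in PFC vehicle and its absence in HYP vehicle are therefore not shown to differ.

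**Figure D2:**
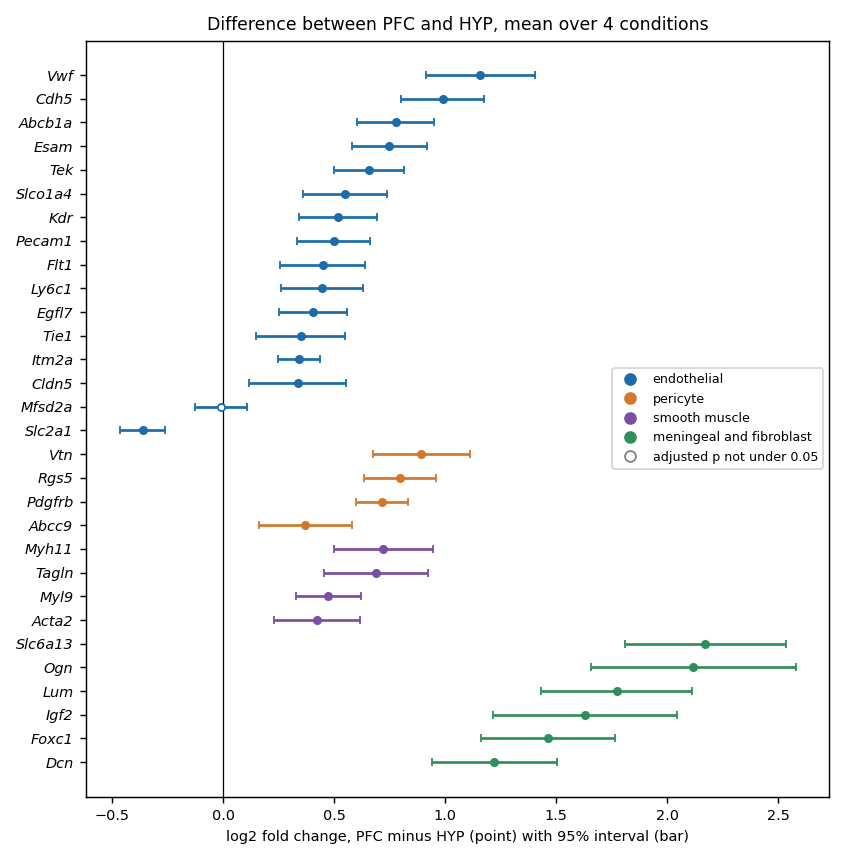
Log2 fold change, PFC minus HYP, averaged over the 4 conditions (x axis), for each of the 30 genes (y axis), with 95% intervals as bars. Colours mark the groups of genes, and an open symbol marks the gene that did not pass the test. The 6 meningeal genes lie farthest to the right, Slc2a1 is the one gene with its interval below 0, and Mfsd2a lies at 0.

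Between the regions, 28 of 30 members were higher in PFC, 1 was lower and 1 did not pass. The background was high: 39.6% of all genes were called higher and 36.5% lower. The largest differences were those of the meningeal genes. Slc6a13, a transporter of GABA and taurine found in meninges, differed by 2.17 ± 0.181 on the log2 scale (4.50-fold; edgeR BH-adjusted p = 4.244e-16), Ogn by 2.12 and Lum by 1.77. Igf2, a growth factor made by meninges and choroid plexus, differed by 1.63, Foxc1, a transcription factor of mesenchyme, by 1.46, and Dcn by 1.22. Dcn, Lum and Ogn encode small leucine-rich proteoglycans of connective tissue.

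Slc6a13 had 13.1 to 53.2 CPM (median 28.8) in PFC and 2.49 to 20.1 (median 4.74) in HYP. Dcn had 9.004 to 50.1 CPM (median 23.8) in PFC and 5.55 to 25.1 (median 9.63) in HYP. The 2 regions overlapped for both genes, as they did for each of the 30 members, whereas 11.3% of all genes tested separated the regions with no overlap. Within a mouse, PFC exceeded HYP for the 6 meningeal genes in 27 to 29 of 30 mice with both libraries.

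Among the 14 endothelial genes called higher the difference spanned from 1.16 for Vwf and 0.99 for Cdh5, the cadherin of endothelial junctions, to 0.34 for Itm2a and 0.34 for Cldn5 (edgeR BH-adjusted p = 0.004973 for Cldn5). Vwf had 12.5 to 58.5 CPM (median 21.1) in PFC and 5.08 to 20.7 (median 9.80) in HYP. Cdh5 had 12.2 to 24.1 CPM (median 15.4) in PFC and 3.13 to 13.4 (median 7.87) in HYP. For each of these genes PFC was the higher region in 30 of 30 mice. The efflux pump Abcb1a, a P-glycoprotein, differed by 0.78, the adhesion molecule Esam by 0.75, Tek by 0.66, and the organic anion transporter Slco1a4 by 0.55. Kdr (0.52), the adhesion molecule Pecam1 (0.50), Flt1 (0.45), Ly6c1 (0.44), the secreted angiogenic factor Egfl7 (0.40) and Tie1 (0.35) completed the endothelial genes called higher.

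Slc2a1 went the other way, with 52.3 to 130 CPM (median 71.2) in PFC and 69.3 to 149 (median 93.3) in HYP. HYP was the higher region in 27 of 30 mice, and the log2 difference was −0.36 ± 0.05095 (SE; edgeR BH-adjusted p = 4.352e-09). Mfsd2a had 12.4 to 53.0 CPM (median 20.2) in PFC and 13.8 to 44.7 (median 21.6) in HYP. PFC exceeded HYP in 16 mice and fell below it in 14, and the log2 difference of −0.010 had a 95% interval from −0.13 to 0.11 (edgeR BH-adjusted p = 0.88). The sign of Slc2a1 and the absence of a call for Mfsd2a held in each alternative analysis.

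Each pericyte gene was higher in PFC: Vtn by 0.89, Rgs5 by 0.79, the growth factor receptor Pdgfrb by 0.71 ± 0.0585 (SE; edgeR BH-adjusted p = 5.476e-17) and Abcc9 by 0.37. Vtn, Rgs5 and Pdgfrb were higher in PFC in 30 of 30 mice, and Abcc9 in 23. The smooth muscle genes differed by 0.72 for the myosin Myh11, 0.69 for the actin-binding Tagln, 0.47 for the light chain Myl9 and 0.42 for Acta2, which was higher in PFC in 20 of 30 mice. By group, the median log2 difference was 0.47 over endothelial, 0.75 over pericyte, 0.58 over smooth muscle and 1.70 over meningeal members, and 0.67 over all 30, against 0.019 over all genes tested.

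Within the single conditions, 21 members were higher in PFC and 0 lower at 3 h after vehicle (54.9% of all genes were called in either direction), 21 and 1 at 3 h after psilocybin (56.2%), 25 and 1 at 4 weeks after vehicle (55.2%), and 23 and 1 at 4 weeks after psilocybin (58%). Igf2 differed by 0.85 at 4 weeks after vehicle (edgeR BH-adjusted p = 0.06264) and by 2.78 at 3 h after psilocybin, and Slc6a13 by 1.38 at 4 weeks and 2.84 at 3 h after psilocybin. PFC psilocybin 3 h replicate 7 had 23.9 CPM of Igf2, where the next PFC library had 11.2. In HYP the median of Igf2 was 1.39 CPM and its lowest count 4 reads. Acta2 differed by 0.10 at 4 weeks after vehicle (edgeR BH-adjusted p = 0.6616) and by 0.75 at 3 h after vehicle. For Acta2 this is the difference in vehicle mice tested above, which did not pass, and for Igf2 and Slc6a13 the differences between these pairs of conditions were not tested.

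The median region difference over the members was 0.55 in cages 1 to 4 (14 mice, pools A and C) and 0.72 in cages 5 to 8 (16 mice, pools B and D), and the sign was positive for 29 of 30 members in both. For the meningeal members these medians were 1.39 and 2.16. Other lists of the vessel wall had positive medians, which are to be read against the 39.6% higher and 36.5% lower over all genes: 28 of 40 further endothelial genes were higher in PFC and 6 lower (median 0.46), led by Cd34 (3.18), a surface sialomucin. Of 23 further mural genes, 16 were higher and 6 lower (0.53), and of 31 genes of VEGF, angiopoietin and Notch signalling 15 were higher and 10 lower (0.22). Of 20 Wnt and barrier genes, 11 were higher and 4 lower (0.18). The summed level, which the most abundant genes set, was on the other side for the further endothelial genes (median 2216 CPM in PFC and 2285 in HYP) and for the Wnt and barrier genes (723 and 793). Of 30 further meningeal and fibroblast genes, 25 were higher and 0 lower (1.42), with Ccn3 at 2.67.

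Markers of other cells moved with the region. All 7 perivascular macrophage genes (median 1.87) and all 10 microglia genes (0.77) were higher in PFC. Of 11 oligodendrocyte genes 10 were lower (−1.07), and of 9 choroid plexus genes 1 was higher and 7 lower (−1.84). The summed CPM of the choroid plexus genes was 30.3 to 1279 in HYP and 6.70 to 60.0 in PFC, and its top library, HYP vehicle 4 weeks replicate 3, was also the highest HYP library for Dcn, Lum, Igf2, Foxc1 and Pdgfrb. The part of these cells in the region difference was not tested.

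**Figure D3:**
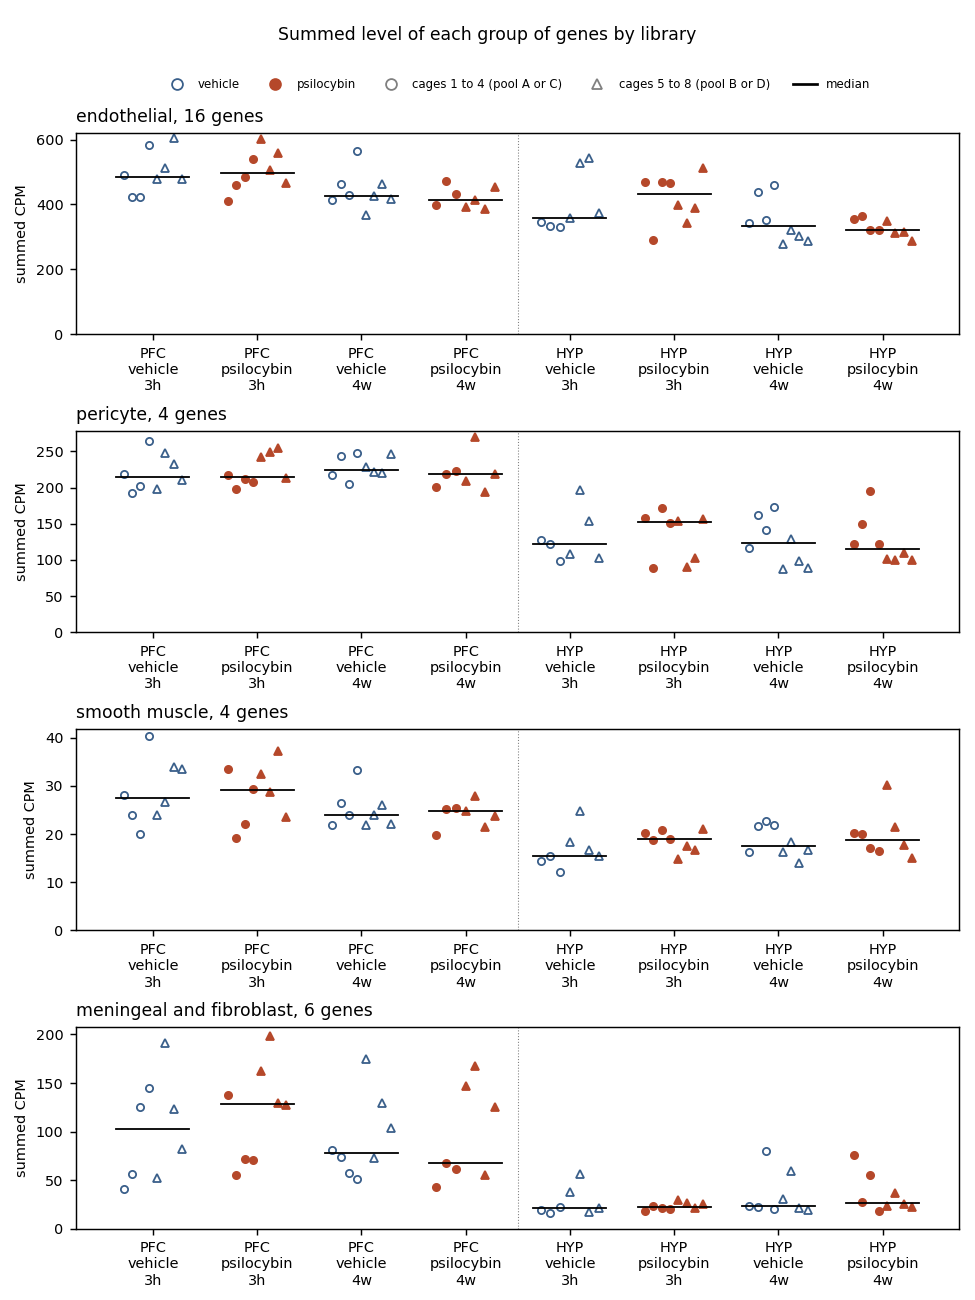
Summed CPM (y axis, from 0) of each of the 4 groups of genes in each library of the 8 groups (x axis), with circles for cages 1 to 4, triangles for cages 5 to 8, open symbols for vehicle, filled symbols for psilocybin and lines at group medians. Meningeal genes are higher and more spread in PFC, where triangles (pool D, median 128) tend to lie above circles (pool C, median 67.3).

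The summed level of the meningeal members was 40.9 to 199 CPM (median 81.9) in PFC and 16.5 to 79.5 (median 23.4) in HYP. Within PFC it was 40.9 to 145 (median 67.3) in pool C and 51.6 to 199 (median 128) in pool D. Within HYP pools A and B had medians of 22.2 and 25.3. The summed pericyte level was 193 to 269 CPM in PFC and 86.9 to 197 in HYP, so that the regions nearly separated, while the endothelial sum (368 to 605 and 278 to 542) and the smooth muscle sum (19.3 to 40.4 and 12.1 to 30.1) overlapped widely.

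Between extraction pools, 8 of 30 members were higher in pool D than in pool C in PFC, where 13.4% of all genes were higher, and 5 of the 8 were meningeal. Igf2 differed by 1.13 ± 0.279 (SE; edgeR BH-adjusted p = 0.00246), Ogn by 0.85, Dcn by 0.74, Slc6a13 by 0.73 and Lum by 0.69, and Foxc1 (0.50) did not pass. The other 3 were Vtn (0.43), Myl9 (0.27) and Pdgfrb (0.21), all with adjusted p above 0.03. In the same contrast 25 of 30 further meningeal genes, 10 of 10 microglia, 10 of 10 astrocyte, 10 of 11 oligodendrocyte, 7 of 9 blood cell and 5 of 7 perivascular macrophage genes were higher in pool D, and their part was not tested. In HYP, 2 members were lower in pool B than in pool A, Rgs5 (−0.40 ± 0.116 SE; edgeR BH-adjusted p = 0.01346) and Tek (−0.36 ± 0.114; 0.02556), against 7.57% of all genes, and 0 were higher. Pools hold different cages, so that extraction and cage cannot be told apart, and both counts moved by more than 1.5 times under other analyses: 4 to 15 members in PFC, and 0 to 12 in HYP. These ranges count both directions, in which the main fit called 24.9% of all genes in PFC and 17.4% in HYP. With no filter, which gave 4 and 0 members, the shares were 8.01% and 5%.

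**Figure D4:**
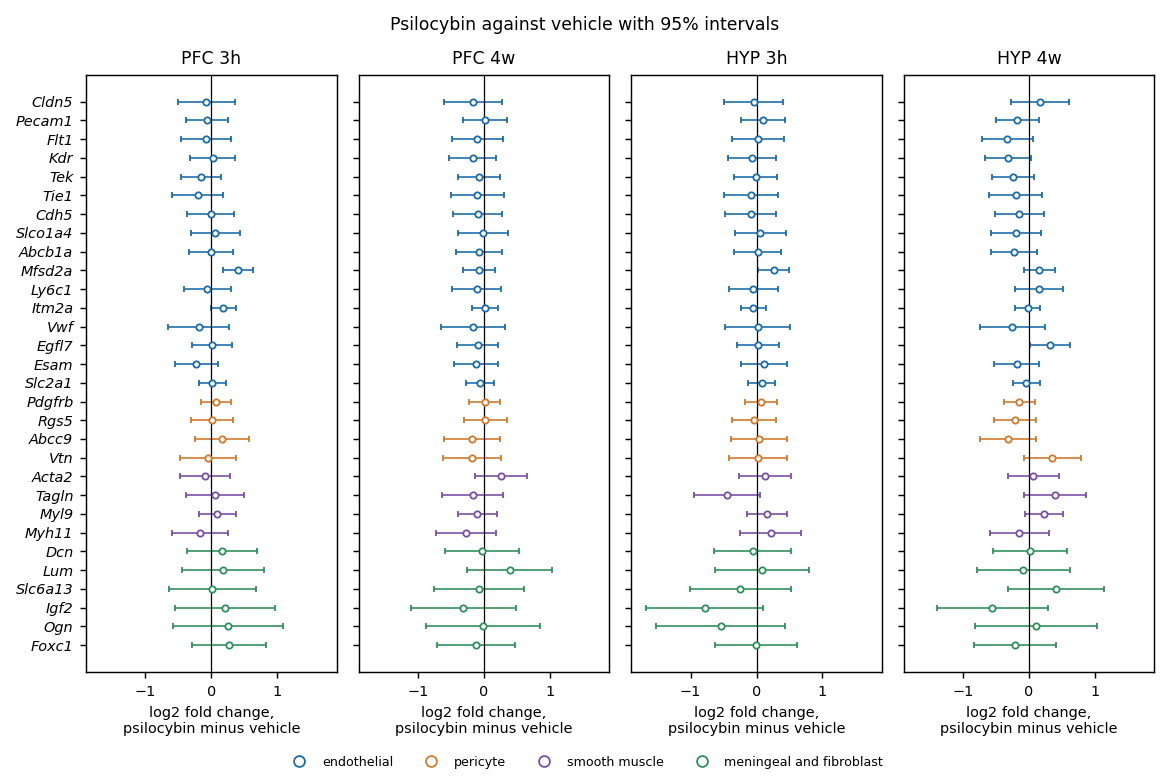
Log2 fold change, psilocybin minus vehicle (x axis), of the 30 genes (y axis) in the 4 combinations of region and time, with 95% intervals as bars and colours for the groups of genes. No gene passed the test in any panel, and Mfsd2a at 3 h in both regions and Egfl7 at 4 weeks in HYP are the genes with intervals that leave out 0.

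The comparison of psilocybin with vehicle asked what the drug changed at each time. In no region and at no time did a member pass the test in edgeR. At 3 h in PFC 0 of 30 were called, against 0.0105% of all genes (2 genes), and at 4 weeks in PFC, at 3 h in HYP and at 4 weeks in HYP 0 of 30 were called and 0% of all genes. With an unadjusted p under 0.05 there were 1 member at 3 h in PFC (7.23% of all genes), 0 at 4 weeks in PFC (2.4%), 1 at 3 h in HYP (1.78%) and 1 at 4 weeks in HYP (9.61%). Without HYP psilocybin 4 weeks replicate 5 the count at 4 weeks in HYP was 0 members and 361 of 18890 genes. Without PFC psilocybin 3 h replicate 7 the count at 3 h in PFC was 2 members and 2691 of 18984 genes. DESeq2 called 0 members in each, and voom called 1, Mfsd2a at 3 h in PFC. These comparisons use the same 8 groups as the comparisons over time, so that a high psilocybin group at 3 h enters both.

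Mfsd2a had the smallest p at 3 h in both regions. In PFC, where the groups overlapped, the psilocybin median was 37.7 CPM and the vehicle median 25.6, and the log2 difference was 0.41 ± 0.113 (SE; 95% interval 0.18 to 0.63; edgeR BH-adjusted p = 0.2996). It was 0.44 within pool C and 0.47 within pool D. Under voom with quality weights it was 0.46 ± 0.111 and passed (limma BH-adjusted p = 0.01045), in an analysis that called 1232 of 18971 genes. In the other analyses the adjusted p was between 0.0894 and 0.9805. PFC psilocybin 3 h replicate 7, with 53.0 CPM, was the highest library, and without it the difference was 0.34 ± 0.114. In HYP the difference was 0.26 ± 0.117 (unadjusted p = 0.03058 in edgeR; BH-adjusted 1), with 0.31 within pool A and 0.28 within pool B.

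The other genes with low p values were Itm2a (0.18) and Esam (−0.23) at 3 h in PFC, and Tagln (−0.45) and Igf2 (−0.79) at 3 h in HYP. At 4 weeks they were Acta2 (0.26), Lum (0.39) and Myh11 (−0.27) in PFC, and Egfl7 (0.32), Kdr (−0.32) and Flt1 (−0.33) in HYP. Their edgeR BH-adjusted p were between 0.5012 and 1. The HYP values at 4 weeks rested in part on 1 library, HYP psilocybin 4 weeks replicate 5: without it Egfl7 differed by 0.024, Kdr by −0.23 and Flt1 by −0.21.

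How large a difference these data leave room for was read from the 95% intervals. The whole interval lay within 0.5 of 0 on the log2 scale for 17 of 30 members at 3 h in PFC, 15 at 4 weeks in PFC, 20 at 3 h in HYP and 5 at 4 weeks in HYP. Within 1 of 0 lay 29, 28, 27 and 27. The median log2 difference over the members was 0.011 at 3 h in PFC, −0.097 at 4 weeks in PFC, where 6 of 30 were above 0, 0.016 at 3 h in HYP, and −0.15 at 4 weeks in HYP, where 11 of 30 were above 0. Over all genes tested it was −0.0074, −0.0067, −0.00081 and 0.0097. The members' median at 3 h in PFC changed sign, to −0.032 with 11 of 30 above 0 instead of 17, without PFC psilocybin 3 h replicate 7, and to −0.0068 under voom. At 3 h in HYP it was 0.13 under voom, with 26 of 30 above 0 instead of 16, and between 0.0065 and 0.074 in the other alternatives. At 4 weeks in HYP it was −0.099 without psilocybin replicate 5 and −0.030 under voom.

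Tests of the difference between psilocybin effects gave 0 of 30 members and 0% of all genes in each case: 3 h against 4 weeks in PFC (0%), the same in HYP (0%), PFC against HYP at 3 h (0%) and at 4 weeks (0%). DESeq2 and voom gave 0 of 30 members as well, though over all genes DESeq2 called 4 for 3 h against 4 weeks in PFC and 64 for PFC against HYP at 4 weeks, and voom 1 for 3 h against 4 weeks in PFC and 8 for PFC against HYP at 3 h. Unadjusted, 1 member had p under 0.05 in PFC (3.08% of all genes), 1 in HYP (5.27%), and 0 between regions at 3 h (2.78%) or 4 weeks (6.69%). The member in PFC was Mfsd2a, whose psilocybin effect was 0.48 ± 0.166 (SE) larger on the log2 scale at 3 h than at 4 weeks (edgeR BH-adjusted p = 1). In HYP it was Tagln, whose effect differed by −0.84 ± 0.340 (edgeR BH-adjusted p = 0.9039). Between regions, PFC minus HYP, the lowest p were those of Igf2 at 3 h (1.00, edgeR BH-adjusted p = 1) and Egfl7 at 4 weeks (−0.41, edgeR BH-adjusted p = 0.7365).

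**Figure D5:**
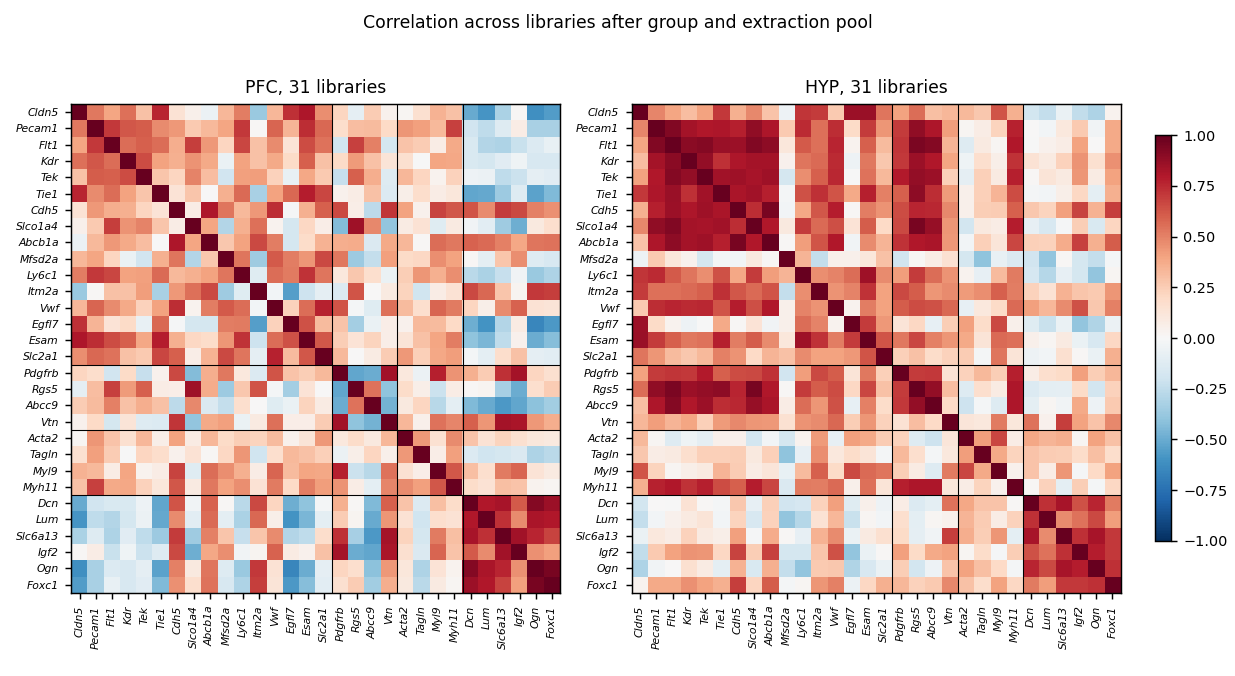
Pearson correlation of each pair of the 30 genes (both axes, ordered by group of genes) across the 31 libraries of PFC and the 31 of HYP, after group and extraction pool were taken out; red is positive and blue negative. The 6 meningeal genes form a red block in both regions, with a median of 0.80 in PFC and 0.71 in HYP.

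The members varied among libraries of a group by a median SD of 0.27 on the log2 scale in PFC and 0.46 in HYP, against 0.27 and 0.27 over all genes tested. Without the 2 libraries that stood apart the members' medians were 0.26 and 0.44 and those of all genes 0.25 and 0.18. Igf2 in HYP (1.08) and Ogn in HYP (0.93) and PFC (0.80) varied most, and Itm2a in HYP (0.16) least. Mfsd2a had an SD of 0.26 in PFC and 0.20 in HYP.

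As a description across the 31 libraries of a region, after group and pool were taken out, the 15 pairs of meningeal genes were all positively correlated, with a median r of 0.80 in PFC and 0.71 in HYP (0.82 and 0.74 without the 2 libraries). The 120 endothelial pairs had a median of 0.40 in PFC and 0.55 in HYP (0.41 and 0.72), and pairs of an endothelial with a meningeal gene −0.11 and 0.077 (−0.13 and 0.092). Endothelial with pericyte genes had medians of 0.17 in PFC and 0.57 in HYP (0.16 and 0.67), and the 6 pericyte pairs −0.435 in PFC and 0.50 in HYP. Pericyte with meningeal genes had medians of 0.19 in PFC and 0.19 in HYP (0.23 and 0.097). In PFC these 24 pairs lay between −0.575 and 0.832. The pericyte genes fell into pairs in PFC: Pdgfrb with Vtn had r of 0.84 and Rgs5 with Abcc9 0.54, while the 4 pairs across lay between −0.52 and −0.40. Without PFC psilocybin 3 h replicate 7 these were 0.84, 0.43 and −0.39 to −0.31. In HYP the same genes had r between 0.14 and 0.88. Mfsd2a was most like Slc2a1 (0.66), Vwf (0.59) and Cdh5 (0.51) in PFC and like Ly6c1 (0.34), Slc2a1 (0.29) and Pecam1 (0.29) in HYP, without the 2 libraries. The points of these correlations share a library, and with it depth and dissection.

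Over the 30 mice with both libraries, the mean deviation of the endothelial members in PFC and in HYP had a Pearson r of 0.391 (permutation p = 0.0326, BH-adjusted 0.13 over 4 relations) and a Spearman rho of 0.353 (permutation p = 0.0557, BH-adjusted 0.223). Without the 2 mice farthest from the median in PFC r was 0.209, so that the relation rested in part on them. For each group of genes the 2 mice were chosen by the PFC values alone, and distance in HYP was not used. For the pericyte members r was 0.0273 (permutation p = 0.886, BH-adjusted 0.886) and rho 0.0687 (0.721, 0.961), and r without the 2 farthest mice was 0.344. For the smooth muscle members r was −0.0586 (permutation p = 0.759, BH-adjusted 0.886) and rho −0.002 (0.992, 0.992), and r without the 2 farthest 0.0861. For the meningeal members r was −0.174 (permutation p = 0.359, BH-adjusted 0.718) and rho −0.138 (0.467, 0.934), and r without the 2 farthest −0.1. In 30 mice none of the 4 relations passed the adjustment.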

How the data were processed

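The deposited table held raw counts of reads per gene, which the authors made from stranded libraries with bcl2fastq 2.20.0, STAR 2.7.2b and featureCounts 1.6.2 on GRCm38 with GENCODE vM25; names come from the methods and the submitters' processing notes. Groups were taken from the labels. Of 64 libraries, 62 with at least 1000000 counts were used; the authors also left out 1 sample rich in wound healing genes, which was kept here. Symbols were matched for 55141 of 55401 gene identifiers.

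Counts were analysed with edgeR 4.0.16 in R 4.3.3: genes were filtered with filterByExpr (minimum count 10) and libraries scaled by TMM, and a quasi-likelihood model with group and extraction pool (within region) was fitted to all 8 groups (52 residual degrees of freedom). P values were BH-adjusted over 18971 genes at 0.05. CPM and RPKM were computed from the counts with TMM factors, and intervals are 95%. The authors instead used voom with quality weights and the animal as a block, which was run here as an alternative (limma 3.58.1; correlation of the animal 0.0282), as were DESeq2 1.42.0, RLE size factors, no filter, no pool, the cage as a block, all 64 libraries, the groups of a contrast alone and leaving out libraries. Correlations used log2 CPM (prior count 0.5) after group and pool; those across mice used 100000 permutations.

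The 30 genes and the further lists were chosen with earlier results of these data known. Every member was described; the rule named members called, or else those with the 3 smallest p, with full statistics, and up to 3 genes of each further list in a comparison, with the counts called. Of members called between regions or pools, and of those with the smallest p, only some are given with SE and p, and the others with the log2 difference alone. The same-numbered PFC and HYP libraries of a treatment and time come from 1 mouse (mean correlation of their deviations 0.0722, over 0.1 in 11 of 30), and so the mouse pairs only the region comparison. The number also marks the cage, and the cage was run as a block in the other comparisons (mean correlation within a region 0.0644 in the same cage and 0.0641 between cages of a pool). Mice are separate animals, and no 2 libraries of a group were alike (lowest chi-square per degree of freedom 3.85 over 210 pairs). The region-specific pools leave no fit that separates pool from region.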

Additional observations from a re-analysis of the deposited data

Results flagged for a closer look

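A library that stood apart from the rest of its group was flagged by Dixon's test for 17 of 240 pairs of gene and group (7.08%), where chance flags about 1 in 20. Of these 17, 8 belong to HYP psilocybin 4 weeks replicate 5. In that library Abcb1a (6.96 CPM), Abcc9 (1.47), Flt1 (13.5), Kdr (4.60) and Tek (3.61) were lower than in the other libraries of the group, and Cldn5 (48.7), Egfl7 (49.1) and Esam (10.9) were higher. The deviation of this library fell with transcript length, and its weight in the voom analysis was 0.0276.

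The other HYP flags were Vtn at 129 CPM in psilocybin 4 weeks replicate 3, Itm2a at 54.9 and Vtn at 75.5 in vehicle 3 h replicate 6, and Myl9 at 6.31 in vehicle 4 weeks replicate 7. In PFC they were Mfsd2a at 53.0 and Rgs5 at 59.3 in psilocybin 3 h replicate 7, whose voom weight was 0.12, Pecam1 at 11.01 in psilocybin 4 weeks replicate 5, Cldn5 at 19.2 in psilocybin 4 weeks replicate 6, and Itm2a at 61.0 in vehicle 3 h replicate 6. Itm2a was thus flagged high in the hypothalamus and the PFC of the same mouse.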

How the results depend on the processing

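The region calls (28 members higher, 1 lower) and the 2 calls in PFC vehicle over time were the same under each alternative run. Members called between 3 h and 4 weeks in HYP psilocybin (2) came to 4 with DESeq2 or voom and 1 with all 64 libraries or only the groups of the contrast. In PFC psilocybin (2) they came to 5 with only those groups and 4 with voom. In HYP vehicle (2) they came to 1 with all 64 libraries, with the cage as a replicate block (Ly6c1 adjusted p = 0.05599), with no extraction pool, no filter or only those groups, and to 4 with voom. Over all genes voom called 19.1% in PFC psilocybin and 7.25% in HYP vehicle, against 5.96% and 0.685% in the main fit. Voom called 1 member, Mfsd2a, for psilocybin at 3 h in PFC (0 otherwise), and turned the Egfl7 psilocybin effect, 3 h minus 4 weeks in HYP, from −0.29 to 0.028. Pool B minus A (2) gave 6 with DESeq2, 0 with no filter, 1 with only those groups and 12 with voom, and pool D minus C (8) gave 4, 14 and 15 with the last 3. The share called over all genes moved too. With no filter it was 5% for pool B minus A, against 17.4% in the main fit, and 8.01% for pool D minus C, against 24.9%. The cause of these moves was not tested.

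Leaving out 1 library at a time gave 1 to 3 calls in HYP psilocybin (1 without 3 h replicate 8), 2 to 2 in PFC psilocybin, 1 to 2 in HYP vehicle, 1 to 6 for pool B minus A, 4 to 13 for pool D minus C, and 0 to 0 for every psilocybin comparison and interaction. Abcc9 was gained in HYP psilocybin without 3 h replicate 6 or without 4 weeks replicate 7 or 8, and Tek was lost between HYP pools without psilocybin 4 weeks replicate 2 or 5. The pairing of regions by mouse (animal as a replicate block) was run for the region comparison only and gave 28 higher and 1 lower. The cage as a replicate block was run for the comparisons of groups and changed no other call than that of Ly6c1 in HYP vehicle. Leaving out both libraries that stand apart was chosen after seeing the data. Depth limits the genes with few reads, Tagln, Lum and Igf2 first.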
